A study of Mus musculus with 6 samples.

Results

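The integrated stress response and the genes of amino acid supply were examined in mouse embryonic fibroblasts (MEFs) that had crossed narrow pores. The set held 33 of the 55335 genes in the deposited table, chosen by gene symbol as the ATF4 pathway, the enzymes of serine, proline and asparagine synthesis, amino acid transporters, and the kinases and phosphatase subunits of the translation factor eIF2. All samples were wild-type MEFs, a connective tissue cell kept in culture. Confine cells were seeded above a transwell membrane with 3 μm pores and those that had come through were collected after 15 h, and Ctrl cells were the parental population. The collected cells were the ones able to cross, so a change made by the passage and the picking of particular cells cannot be told apart. No membrane or time is given for Ctrl cells, so time on the membrane and any difference in medium cannot be told apart from these either. RNA-seq of polyadenylated RNA gave 3 columns of read counts per group. Confine replicates 1 and 2 carried the same count for each of the 55335 genes and entered as 1 library, called the repeated Confine library, which left 3 Ctrl and 2 Confine libraries. The labels do not say that replicates came from separate cultures, and p-values may then measure technical spread alone.

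In the integrated stress response, kinases such as GCN2, which senses uncharged tRNA, and PERK, which senses unfolded protein in the endoplasmic reticulum (ER), phosphorylate the alpha subunit of eIF2. General translation then slows, while the transcription factor ATF4 is made from its mRNA more efficiently and raises genes for amino acid synthesis, amino acid import and tRNA charging. Much of this control acts on protein, and mRNA counts report neither eIF2 phosphorylation nor the amount of ATF4 protein.

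ATF4 and its C/EBP partners bind a composite element, and the letters TGATGNAAN, read as NTTNCATCA on the opposite strand, were looked for in RefSeq promoter windows of GRCm38.p6 from 250 bases before to 50 bases after each start. Of the 33 members, 28 had a window, and Cth, Slc7a3, Slc7a5, Slc1a5 and Ppp1r15b had no entry. The letters were present in 9 of these 28 members (32.1%), against 4.50% of the 27025 genes with a window. Members were chosen in part as the ATF4 pathway, so setting these shares side by side is no test of the element. These stretches are shown because they carry the shared letters among members that went in different directions, with the match in capitals and 30 bases on either side where the window allows.
Asns, chr6:7693194-7693262, minus strand: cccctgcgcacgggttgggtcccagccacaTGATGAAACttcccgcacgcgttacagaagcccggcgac
Chac1, chr2:119351018-119351086, plus strand: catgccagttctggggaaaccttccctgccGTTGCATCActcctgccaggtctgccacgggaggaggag
Atf3, chr1:191183406-191183474, minus strand: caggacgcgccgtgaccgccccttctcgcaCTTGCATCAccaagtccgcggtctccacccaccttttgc
Nupr1, chr7:126625543-126625611, minus strand: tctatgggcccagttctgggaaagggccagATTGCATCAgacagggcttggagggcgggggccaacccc
Vldlr, chr19:27216789-27216857, plus strand: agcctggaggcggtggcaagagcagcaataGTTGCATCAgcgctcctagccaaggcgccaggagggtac
Slc1a4, chr11:20332680-20332748, minus strand: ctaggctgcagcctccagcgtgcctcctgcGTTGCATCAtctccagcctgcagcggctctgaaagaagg
Trib3, chr2:152344011-152344077, minus strand: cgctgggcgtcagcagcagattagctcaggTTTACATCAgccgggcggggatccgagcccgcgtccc
Pycr1, chr11:120643813-120643881, minus strand: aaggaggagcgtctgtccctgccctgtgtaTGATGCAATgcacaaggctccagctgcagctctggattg
Slc7a11, chr3:50443623-50443709, minus strand: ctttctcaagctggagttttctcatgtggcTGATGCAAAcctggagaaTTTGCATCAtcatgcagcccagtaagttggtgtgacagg
The match began at position -23 in Asns, -194 in Chac1, -111 in Atf3, -111 in Nupr1, -201 in the second window of Vldlr, -5 in Slc1a4, 13 in Trib3 and -103 in Pycr1, counted from 0 at the RefSeq start. In Slc7a11 there were 2 matches on opposite strands, at -66 and -48. No match overlapped the other motif searched. The cyclic AMP response element TGACGTCA was found in the window of 1 member, Ppp1r15a, and in 2.03% of all genes. The promoters of Phgdh and Psat1 are given in full, as those of abundant members that fell together and whose windows hold neither set of letters.
Phgdh, chr3:98339920-98340219, minus strand: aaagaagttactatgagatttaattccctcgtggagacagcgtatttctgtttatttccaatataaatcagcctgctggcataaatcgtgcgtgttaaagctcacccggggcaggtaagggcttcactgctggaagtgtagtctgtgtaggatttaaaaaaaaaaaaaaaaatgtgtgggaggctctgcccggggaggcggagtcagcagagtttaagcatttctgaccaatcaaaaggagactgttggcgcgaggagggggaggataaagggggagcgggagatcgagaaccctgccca
Psat1, chr19:15925010-15925309, minus strand: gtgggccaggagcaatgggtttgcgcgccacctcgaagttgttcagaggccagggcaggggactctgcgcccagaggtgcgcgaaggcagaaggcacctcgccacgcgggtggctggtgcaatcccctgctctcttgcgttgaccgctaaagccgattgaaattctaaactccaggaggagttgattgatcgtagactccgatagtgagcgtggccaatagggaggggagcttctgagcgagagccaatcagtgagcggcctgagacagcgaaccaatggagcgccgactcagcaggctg
Such matches describe letters and do not show that a factor was bound.

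Counts were scaled by the TMM method to normalized read counts on a common library size (CPM), and Confine was compared with Ctrl by the quasi-likelihood test of edgeR over the 15881 genes that passed its filter on low counts. Calls needed an adjusted p under 0.05, after Benjamini-Hochberg adjustment over all tested genes, and a stricter rule also required an absolute log2 fold change above 1.5. Of the 33 members 32 were tested. Cbs was not, having 2, 6 and 4 counts in Ctrl and 14 and 7 in Confine. Among the tested members 5 were higher in Confine (15.6%), against 12.8% of all tested genes, and 15 were lower (46.9%), against 10.2% of all tested genes. By the stricter rule 1 member was higher (3.12%), against 4.89% of all genes, and 8 were lower (25.0%), against 3.11%. The median log2 fold change was -0.56 over the tested members and -0.0021 over all tested genes. Members were chosen with earlier results of these data known, so setting these values side by side is no test of the set. In bulk RNA of this kind, fewer cells carrying a transcript and less of it per cell cannot be told apart. Whether the groups overlapped is given below as a description of the same libraries that gave the calls, not as further support. The share of all genes without overlap was not counted.

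Total counts ranged from 22287210 to 27853805 in Ctrl and were 32537550 and 27290138 in Confine, and the TMM factors were 1.04 to 1.08 in Ctrl and 0.910 to 0.924 in Confine. Scaling by library size alone moved the median log2 fold change of all genes by -0.21. The fibroblast markers Vim, Col1a1, Col1a2 and Fn1 were abundant and Thy1, Dcn and Lum at or near 0, and the summed CPM of 12 fibroblast markers was 8763 to 9629 in Ctrl and 15746 to 16520 in Confine. Of the 9 tested markers in this list 5 were higher and 1 lower. Summed leukocyte markers were 15.8 to 17.8 CPM in Ctrl and 35.6 to 41.3 CPM in Confine, with 3 of 4 tested markers higher (Cd68, Cd14, Csf1r) and Lyz2 lower, while Ptprc, Adgre1 and Cd3e were at or near 0. Muscle markers summed to 4.76 to 6.39 CPM in Ctrl and 13.3 to 15.3 CPM in Confine, from Des and Acta1 with Myod1 at 0. Endothelial markers summed to 0.60 to 1.36 CPM in Ctrl and 2.43 to 2.70 CPM in Confine, mostly from Vwf, and epithelial markers to at most 0.675 CPM in any library. The part of these shifts in the results below was not tested.

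**Figure D1:**
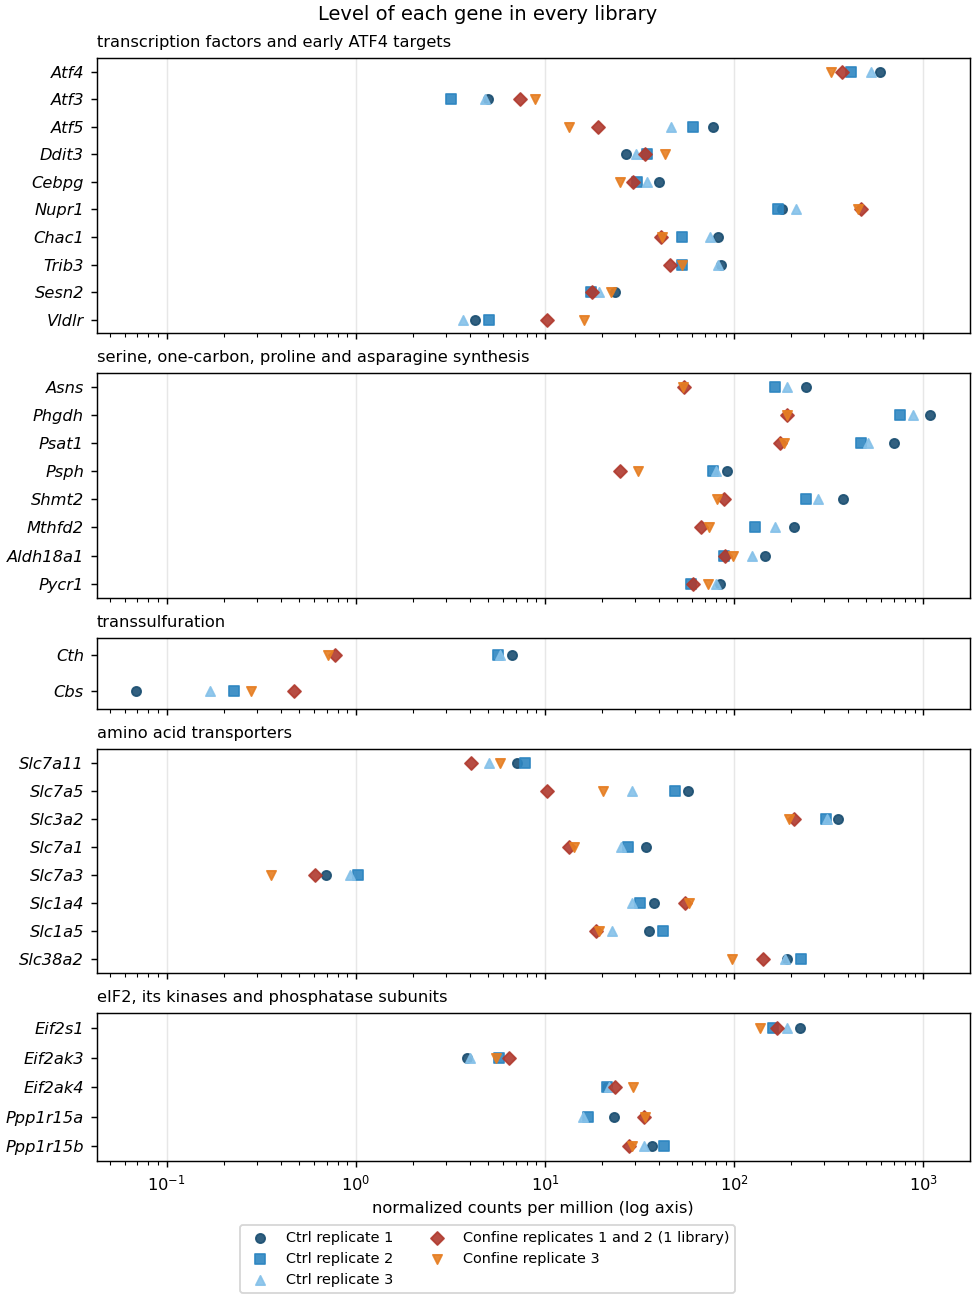
Normalized CPM (log axis) of the 33 genes in each of the 5 libraries, in panels by role; blue symbols are the 3 Ctrl libraries and red and orange symbols the 2 Confine libraries. Phgdh lies between 755 and 1084 CPM in Ctrl and at 190.1 and 190.3 CPM in Confine, while Nupr1 lies between 171 and 211 CPM in Ctrl and at 469 and 451 CPM in Confine.

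Atf4, the central transcription factor of the response (ENSMUSG00000042406, chr15:80255184-80257541, plus strand), was slightly lower in Confine. Its level was 591, 417 and 532 CPM in Ctrl and 374 and 324 CPM in the repeated Confine library and Confine replicate 3. Both Confine libraries were below the lowest Ctrl library. This was a log2 fold change of -0.56 ± 0.19 (SE, n = 3 and 2), with an edgeR adjusted p of 0.0453. This call was lost without Ctrl replicate 1 (adjusted p = 0.185), without Ctrl replicate 3 (0.0908), without the repeated Confine library (0.100) and without Confine replicate 3 (0.284). Per kilobase of exon, Atf4 stayed among the most abundant members, at 218 CPM/kb in Ctrl and 148 CPM/kb in Confine.

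Atf5, a related factor whose translation is controlled in a similar way (ENSMUSG00000038539, chr7:44812256-44816658, minus strand), fell much further. It gave 77.5, 60.7 and 46.1 CPM in Ctrl against 19.1 and 13.4 CPM in Confine. Every Ctrl library was above both Confine libraries. The log2 fold change was -1.92 ± 0.24, a 3.78-fold drop, with an edgeR adjusted p of 1.04e-05. An exon stretch of 82 bases (4.11% of the gene) overlaps Nup62 on the opposite strand, and whether counting used the strand is not given in the sources used here.

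Ddit3, which encodes the pro-death factor CHOP (ENSMUSG00000025408, chr10:127290774-127296288, plus strand), did not pass the test. It gave 26.7, 34.6 and 30.2 CPM in Ctrl and 33.9 and 43.2 CPM in Confine, and the groups overlapped. The log2 fold change was 0.34 (95% interval -0.07 to 0.74), with an edgeR adjusted p of 0.231. Ddit3 shares 68 exon bases with the methionyl-tRNA synthetase gene Mars on the opposite strand.

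The remaining genes of this role split. Vldlr, the very low density lipoprotein receptor (ENSMUSG00000024924, chr19:27216484-27254231, plus strand), gave 4.25, 5.03 and 3.70 CPM in Ctrl and 10.3 and 16.0 CPM in Confine. The groups did not overlap, and Confine replicate 3 was the highest library. Its change on the log2 scale was 1.60 ± 0.25 with an edgeR adjusted p of 0.000107. It stood at 1.49 without Ctrl replicate 3 and at 1.25 without Confine replicate 3, below the stricter cutoff but still called.

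Nupr1, a small stress-induced chromatin protein, rose from 178, 171 and 211 CPM in Ctrl to 469 and 451 CPM in Confine. The groups were well apart, and the log2 fold change was 1.30 ± 0.18 with an edgeR adjusted p of 2.46e-05. Per kilobase it was the member with the highest level in Confine, 183 CPM/kb against 74.4 CPM/kb in Ctrl. Atf3, an early stress factor, was called higher at a log2 fold change of 0.90 (edgeR adjusted p = 0.0172), from 3.17 to 4.97 CPM in Ctrl to 7.37 and 8.81 CPM in Confine. The Atf3 call was lost without the repeated Confine library (adjusted p = 0.0505) and without Confine replicate 3 (0.174).

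Chac1, which degrades glutathione, was called lower at a log2 fold change of -0.77 (edgeR adjusted p = 0.0108), with 53.1 to 82.2 CPM in Ctrl and 41.0 and 41.4 CPM in Confine. That call did not hold without Ctrl replicate 1 (adjusted p = 0.0580), the repeated Confine library (0.109) or Confine replicate 3 (0.107). The pseudokinase gene Trib3, the C/EBP partner Cebpg and the stress sensor gene Sesn2 did not pass the test, at log2 fold changes of -0.56, -0.37 and -0.0050. Trib3 had an edgeR adjusted p of 0.0662, and of 0.00285 without Ctrl replicate 2. Over the 10 genes of this role 3 rose, 3 fell and 4 did not pass, with a median log2 fold change of -0.19. The shares over all tested genes were 12.8% higher and 10.2% lower.

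**Figure D2:**
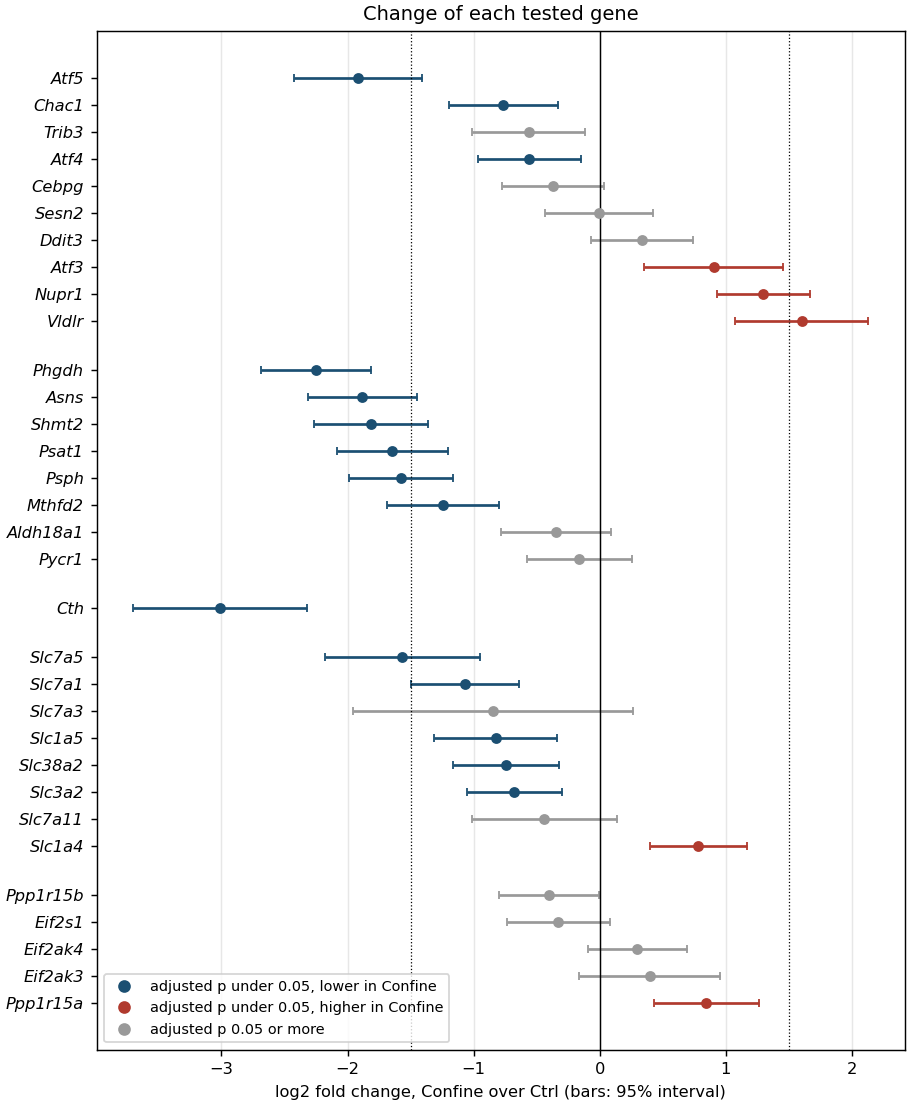
Log2 fold change of Confine over Ctrl for the 32 tested genes, in blocks by role and sorted within each; bars are 95% intervals, colours give the call and dotted lines mark a log2 fold change of 1.5 in either direction. Cth and Phgdh lie farthest to the left at -3.01 and -2.25, and Vldlr farthest to the right at 1.60.

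Transcripts for the enzymes of serine and asparagine synthesis fell, as did those of the mitochondrial one-carbon genes Shmt2 and Mthfd2. Over all tested genes 10.2% were lower and 12.8% higher. Of the 8 genes in this role 6 were called lower (75.0%) and 0 higher, and the median log2 fold change was -1.61. Their calls held without any 1 of the 5 libraries.

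Serine is made from a glycolytic intermediate in a short chain of enzymes. Phgdh, which encodes the dehydrogenase that opens it (ENSMUSG00000053398, chr3:98313170-98339990, minus strand), gave 1084, 755 and 878 CPM in Ctrl and 190.1 and 190.3 CPM in Confine. The spread among Ctrl libraries was smaller than the distance to Confine. Its mean was 906 ± 166 CPM (SD, n = 3) in Ctrl and 190.2 ± 0.14 CPM (SD, n = 2) in Confine, a log2 fold change of -2.25 ± 0.21 (SE) with an edgeR adjusted p of 2.75e-07. In Ctrl, Phgdh was the most abundant member per kilobase, at 364 CPM/kb, and in Confine it stood at 76.5 CPM/kb, below Nupr1 and Atf4.

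Psat1, the transaminase of the next step (ENSMUSG00000024640, chr19:15904678-15947337, minus strand), gave 702, 468 and 512 CPM in Ctrl and 174 and 184 CPM in Confine. On the log2 scale the fold change was -1.64 ± 0.21, with an edgeR adjusted p of 1.15e-05. Psph, the phosphatase that releases serine (ENSMUSG00000029446, chr5:129765558-129787449, minus strand), gave 91.6, 76.9 and 79.7 CPM in Ctrl and 24.8 and 30.9 CPM in Confine. For both genes every Ctrl library was above every Confine library. Psph changed by -1.57 ± 0.20 on the log2 scale, with an edgeR adjusted p of 1.01e-05. Psph shares 452 exon bases (10.4%) with Cct6a on the opposite strand, a gene with a mean of 9862 counts against 1614 for Psph, so part of its counts is uncertain. Without Ctrl replicate 1 the log2 fold changes of Psat1 and Psph were -1.46 and -1.499, and without the repeated Confine library that of Psph was -1.42, short of the stricter cutoff but still called.

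Shmt2, the mitochondrial enzyme that splits serine into glycine and a one-carbon unit (ENSMUSG00000025403, chr10:127517123-127522444, minus strand), gave 375, 239 and 277 CPM in Ctrl and 88.2 and 80.8 CPM in Confine. The groups did not overlap, and Ctrl replicate 1 was the highest library. Shmt2 had a log2 fold change of -1.81 ± 0.21, with an edgeR adjusted p of 5.43e-06. Mthfd2, which oxidizes that one-carbon unit in mitochondria, was called lower at a log2 fold change of -1.24 (edgeR adjusted p = 0.000243), from 129 to 207 CPM in Ctrl to 66.9 and 74.0 CPM in Confine.

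Asns, asparagine synthetase and a classic ATF4 target (ENSMUSG00000029752, chr6:7675169-7693254, minus strand), gave 239, 164 and 191 CPM in Ctrl and 54.1 and 53.3 CPM in Confine. The Confine libraries lay together, well below Ctrl. Asns had a log2 fold change of -1.88 ± 0.21, a 3.68-fold drop, with an edgeR adjusted p of 2.20e-06.

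The proline synthesis genes of this role did not pass the test. Aldh18a1, which makes the proline precursor pyrroline carboxylate, gave 88.5 to 145 CPM in Ctrl and 89.0 and 98.0 CPM in Confine, and Pycr1, which reduces it to proline, gave 59.0 to 84.6 CPM in Ctrl and 60.7 and 72.7 CPM in Confine. The groups overlapped for both. Their log2 fold changes were -0.35 (95% interval -0.79 to 0.09) and -0.16 (95% interval -0.58 to 0.26). Without Ctrl replicate 2, Aldh18a1 was called at -0.53 with an edgeR adjusted p of 0.0244.

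The transsulfuration gene Cth showed the largest change of any tested member. Cth encodes cystathionine gamma-lyase, which releases cysteine (ENSMUSG00000028179, chr3:157894248-157925077, minus strand). It had 194, 150 and 136 counts in Ctrl and 23 and 18 counts in Confine, or 6.70, 5.67 and 5.78 CPM against 0.777 and 0.715 CPM. The Confine libraries were far below Ctrl, though above the floor of 3 counts, which equals 0.101 to 0.128 CPM. This gave a log2 fold change of -3.01 ± 0.33, with an edgeR adjusted p of 2.06e-06.

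**Figure D3:**
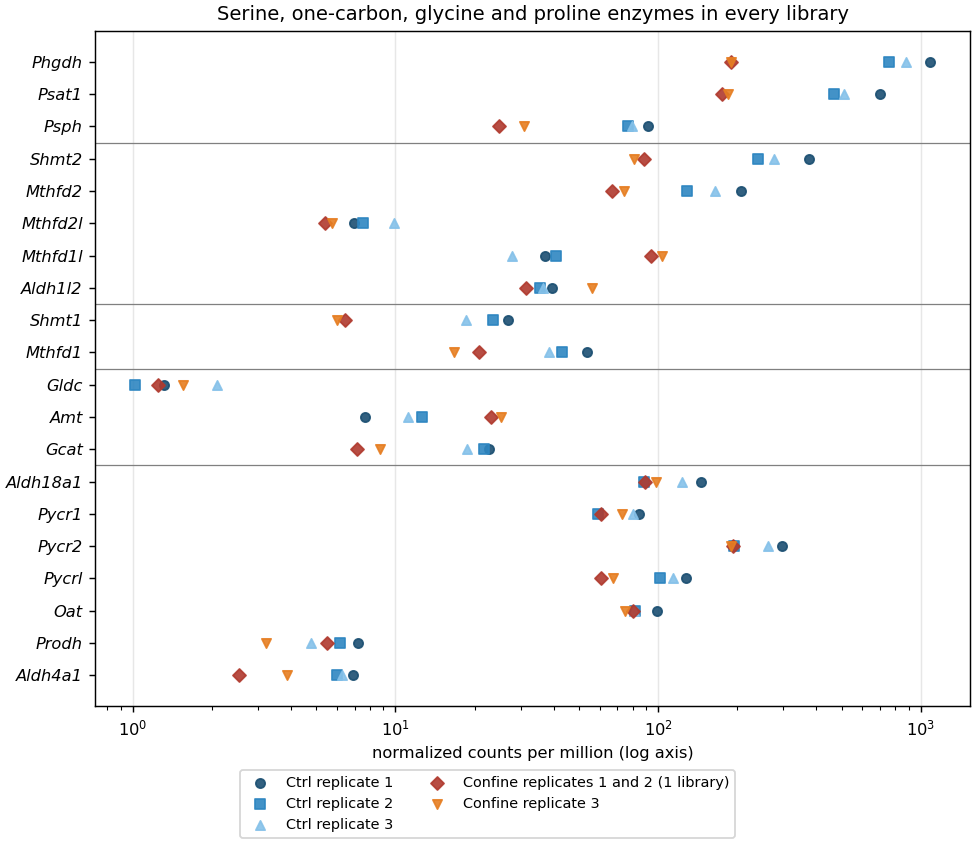
Normalized CPM (log axis) in each library for serine synthesis (top block), mitochondrial one-carbon, cytosolic one-carbon, glycine and threonine breakdown, and proline enzymes (bottom block), including genes outside the 33. Shmt2 and Shmt1 both lie lower in Confine, at 80.8 to 88.2 and 5.995 to 6.42 CPM, while Mthfd1l and Amt lie higher, at 94.2 to 103 and 23.2 to 25.3 CPM.

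Related genes outside the 33 did not all follow. Of 14 further serine, one-carbon, glycine and proline genes 13 were tested, with a median log2 fold change of -0.46. Among them 2 were higher (15.4%) and 5 lower (38.5%), against 12.8% and 10.2% of all tested genes. Past the stricter cutoff stood Shmt1, the cytosolic counterpart of Shmt2, with 26.8, 23.5 and 18.5 CPM in Ctrl and 6.42 and 5.995 CPM in Confine. Its log2 fold change was -1.88 ± 0.23, with an edgeR adjusted p of 6.72e-06. Mthfd1l, which makes formate in mitochondria, rose at a log2 fold change of 1.48, and Amt of the glycine cleavage system at 1.21. Mthfd1, the cytosolic enzyme that takes up formate, fell at -1.27, Gcat of threonine breakdown at -1.41, Pycr3 (listed as Pycrl), a cytosolic pyrroline carboxylate reductase, at -0.83, and Aldh4a1 of proline breakdown from a mean of 6.37 CPM in Ctrl to 3.19 CPM in Confine. Without the repeated Confine library 3 of these 5 lower calls remained, and Pycrl and Aldh4a1 lost theirs.

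Among the 8 amino acid transporters 5 fell, 1 rose and 2 did not pass, with a median log2 fold change of -0.78. For comparison, 10.2% of all tested genes were lower and 12.8% higher. Slc7a5, the light chain of the LAT1 carrier of large neutral amino acids (ENSMUSG00000040010, chr8:121881150-121907694, minus strand), gave 57.3, 48.4 and 28.9 CPM in Ctrl and 10.2 and 20.2 CPM in Confine. The groups did not overlap, but this gene had the widest spread of any tested member within both groups, with a highest over lowest ratio of 1.98 in Ctrl and 1.97 in Confine. The log2 fold change was -1.56 ± 0.29, with an edgeR adjusted p of 0.000607. It was -1.35 without Ctrl replicate 1 and -1.15 without the repeated Confine library, when the adjusted p was 0.0401.

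Slc3a2, the heavy chain shared by LAT1 and the cystine carrier, was called lower at a log2 fold change of -0.68 (edgeR adjusted p = 0.00956), from 305 to 353 CPM in Ctrl to 207 and 196 CPM in Confine. Slc7a1, a carrier of cationic amino acids, was lower at -1.07 (edgeR adjusted p = 0.000760), Slc1a5, which carries glutamine, at -0.82 (0.0147) and Slc38a2, which imports small neutral amino acids with sodium, at -0.74 (0.0114). In each of these genes both Confine libraries were below the lowest Ctrl library. The calls of Slc3a2 and Slc1a5 were lost without the repeated Confine library (adjusted p = 0.0599 and 0.135) and without Confine replicate 3 (0.0977 and 0.119). The Slc38a2 call was lost without Confine replicate 3 (adjusted p = 0.240).

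Slc1a4, a carrier of serine, alanine and cysteine, went the other way. It gave 37.6, 31.8 and 28.9 CPM in Ctrl and 55.0 and 57.8 CPM in Confine, and Confine did not overlap Ctrl. The log2 fold change was 0.78, with an edgeR adjusted p of 0.00408, and the call was lost without Confine replicate 3 (adjusted p = 0.0675). Slc7a11, the light chain of the cystine carrier, gave 5.06 to 7.82 CPM in Ctrl and 4.05 and 5.80 CPM in Confine. Slc7a3, another cationic carrier, had 9 to 27 counts per library. Neither passed the test, at log2 fold changes of -0.44 and -0.85.

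Of the 5 genes for eIF2, its kinases and its phosphatase subunits, 1 rose and 0 fell, against 12.8% and 10.2% of all tested genes. Eif2ak3, which encodes PERK (ENSMUSG00000031668, chr6:70844515-70905245, plus strand), gave 3.87, 5.74 and 3.998 CPM in Ctrl and 6.42 and 5.52 CPM in Confine. The groups overlapped, and the log2 fold change was 0.40 (95% interval -0.17 to 0.96; edgeR adjusted p = 0.320). Eif2ak4, which encodes GCN2 (ENSMUSG00000005102, chr2:118388618-118475234, plus strand), gave 21.2, 21.3 and 21.7 CPM in Ctrl and 23.5 and 29.2 CPM in Confine. Confine lay above Ctrl in both libraries, but the log2 fold change of 0.30 (95% interval -0.09 to 0.69) did not pass the test (edgeR adjusted p = 0.280).

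Ppp1r15a, the stress-induced phosphatase subunit GADD34 that reverses eIF2 phosphorylation, was called higher. It gave 23.2, 16.8 and 15.9 CPM in Ctrl and 33.4 and 33.7 CPM in Confine, and the groups did not overlap. The log2 fold change was 0.85 with an edgeR adjusted p of 0.00425, and 0.0548 without Confine replicate 3. Its constitutive counterpart Ppp1r15b and the eIF2 alpha subunit gene Eif2s1 did not pass the test, at log2 fold changes of -0.40 and -0.33.

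Ctrl replicate 1 was the highest Ctrl library in 22 of the 32 tested members and in 13 of the 15 that were called lower. The same count was not made over all tested genes, and the lower calls used Ctrl replicate 1 itself. The median ratio of the highest to the lowest library over the tested members was 1.44 within Ctrl and 1.16 within Confine. Without Ctrl replicate 1, 13 members were still called lower, 5 of them past the stricter cutoff.

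Neighbouring branches of the pathway, from lists chosen with earlier results known, are set beside the 33 in the plot of changes by gene list. Over all tested genes 12.8% were higher and 10.2% lower, and over the 98 tested genes of these lists 13.3% and 26.5%. Of 20 cytosolic aminoacyl-tRNA synthetase genes, which charge tRNAs and include many ATF4 targets, 10 were called lower and 0 higher, with a median log2 fold change of -0.54. The called values ran from -0.98 in Mars to -0.53 in Lars. That count rested on several libraries, being 2 without Ctrl replicate 1, 2 without the repeated Confine library and 1 without Confine replicate 3. Aars, at -0.96, kept its call throughout.

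Of 12 remaining eIF2 pathway genes 1 was higher and 1 lower (8.33% each, below the shares over all tested genes). These were Eif2b2, a subunit of the exchange factor for eIF2, at a log2 fold change of 1.18 (edgeR adjusted p = 0.000107), and Impact, an inhibitor of GCN2, at -0.75 (0.0100). Impact lost its call without Confine replicate 3.

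Of 13 remaining ATF4 targets and partners 12 were tested. Among these 3 rose and 3 fell (25.0% each), against 12.8% and 10.2% of all tested genes. Ero1a (listed as Ero1l), an oxidase that forms disulphide bonds in the ER, stood far apart with 12.4, 15.0 and 10.5 CPM in Ctrl and 276 and 448 CPM in Confine. Its log2 fold change was 4.84 ± 0.24, with an edgeR adjusted p of 7.82e-11. Slc6a9, a glycine carrier, fell at -1.57 (edgeR adjusted p = 0.00646), from 2.83 to 8.68 CPM in Ctrl to 1.86 and 2.46 CPM in Confine, and lost its call without the repeated Confine library. The others were Ddit4, an inhibitor of mTORC1, at 1.40, Stc2 at 0.80, Jdp2 at -1.29 and the alanine transaminase gene Gpt2 at -0.92. Stc2 lost its call without Confine replicate 3, and Jdp2 and Gpt2 without the repeated Confine library.

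Of 22 further amino acid transporters 15 were tested, and 2 rose (13.3%, near the 12.8% of all tested genes) and 4 fell (26.7%). Slc7a2, a carrier of cationic amino acids like Slc7a1 and Slc7a3, rose from 97.3, 116 and 111 CPM in Ctrl to 478 and 534 CPM in Confine. Its log2 fold change was 2.23 ± 0.18, with an edgeR adjusted p of 4.61e-08. Slc38a3, a glutamine carrier, had 0 counts in every Ctrl library and 1.18 and 1.07 CPM in Confine, and was at least 9.81-fold higher against the floor of 3 counts per library. Slc1a3, a glutamate carrier, fell from 309, 237 and 349 CPM in Ctrl to 46.3 and 29.9 CPM in Confine, at a log2 fold change of -2.97 ± 0.24 and an edgeR adjusted p of 6.79e-08. Slc38a1, a glutamine carrier related to Slc38a2, fell at -1.61 (edgeR adjusted p = 2.51e-05), from 15.6 to 17.6 CPM in Ctrl to 5.54 and 5.56 CPM in Confine. Slc38a4 at -1.30 and Slc36a1 at -0.79 were also called lower, and both lost the call without Ctrl replicate 1 and without the repeated Confine library, as did Slc38a4 without Ctrl replicate 3 and without Confine replicate 3.

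The median log2 fold change of 9 methionine cycle and glutathione genes was -0.15. Of these genes 3 were called lower (33.3%) and 0 higher, against 10.2% and 12.8% of all tested genes. These were Mat2a, which makes S-adenosylmethionine, at -1.11, Ahcy, which clears its product, at -1.11, and the glutamate-cysteine ligase subunit Gclm at -0.59. Mat2a lost its call without Confine replicate 3, Ahcy without the repeated Confine library, and Gclm without either of them or Ctrl replicate 1.

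The XBP1 and ATF6 arms of ER stress act beside PERK. The median log2 fold change of 17 genes of these arms was 0.32. Of these genes 5 were called higher (29.4%) and 0 lower, against 12.8% and 10.2% of all tested genes. These were Xbp1 at 0.97, Manf at 0.75, Dnajb9 at 0.72, Hsp90b1 at 0.69 and the chaperone gene Hspa5 at 0.63. The count was 2 without the repeated Confine library and 3 without Ctrl replicate 3, and 2 with library size alone. Xbp1 and Hsp90b1 kept their calls throughout.

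**Figure D4:**
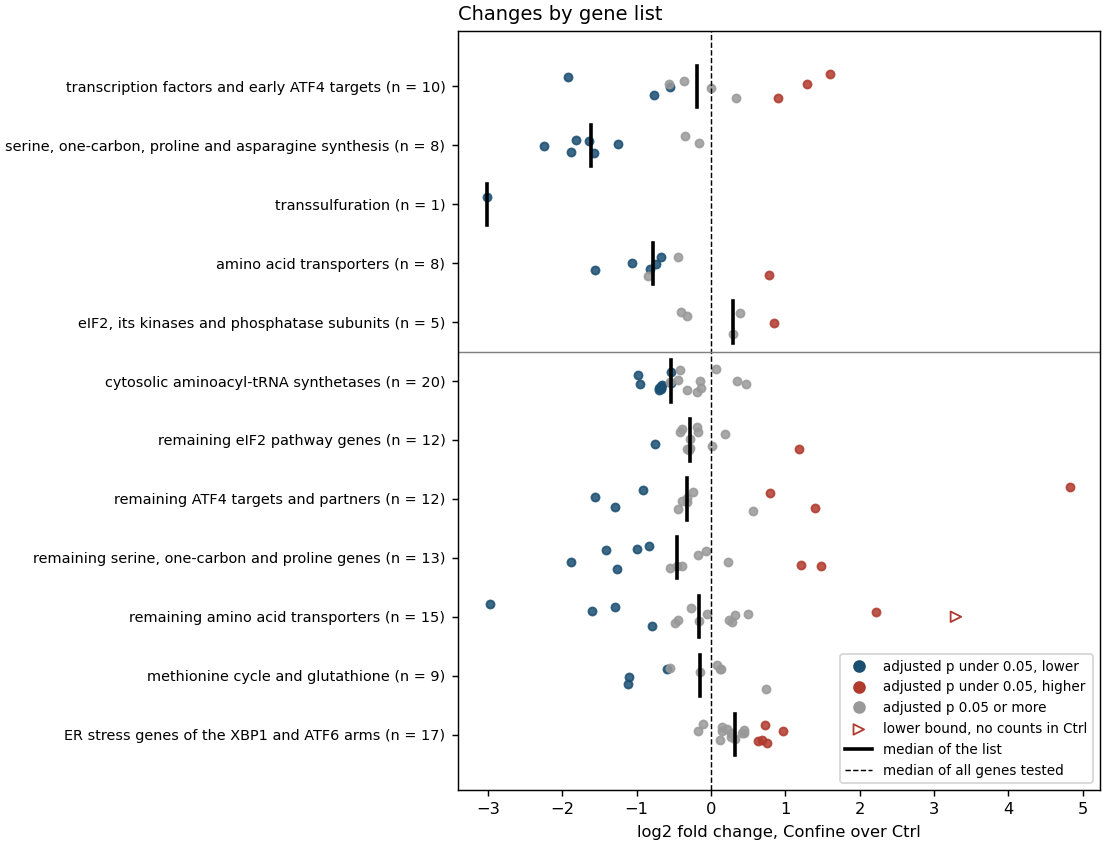
Log2 fold change of each tested gene by list, with the 5 roles of the 33 genes above the line and 7 neighbouring lists below it; black ticks are medians, the dashed line is the median of all tested genes, and an open triangle is the lower bound of Slc38a3. The serine, one-carbon, proline and asparagine role has a median of -1.61, the tRNA synthetases of -0.54 and the ER stress genes of 0.32.

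Of the 9 members whose promoter window held TGATGNAAN, 4 were called higher (Atf3, Nupr1, Slc1a4 and Vldlr). Another 2 were called lower (Asns and Chac1), and 3 did not pass the test (Trib3, Pycr1 and Slc7a11). Over all tested genes 12.8% were higher and 10.2% lower, and calls among all genes with these letters were not counted. Whether the letters go with a direction was not tested. Of the 5 members called higher, Ppp1r15a had no match. Among the 8 members lower past the stricter cutoff Asns alone had a match, and Cth and Slc7a5 had no window.

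**Figure D5:**
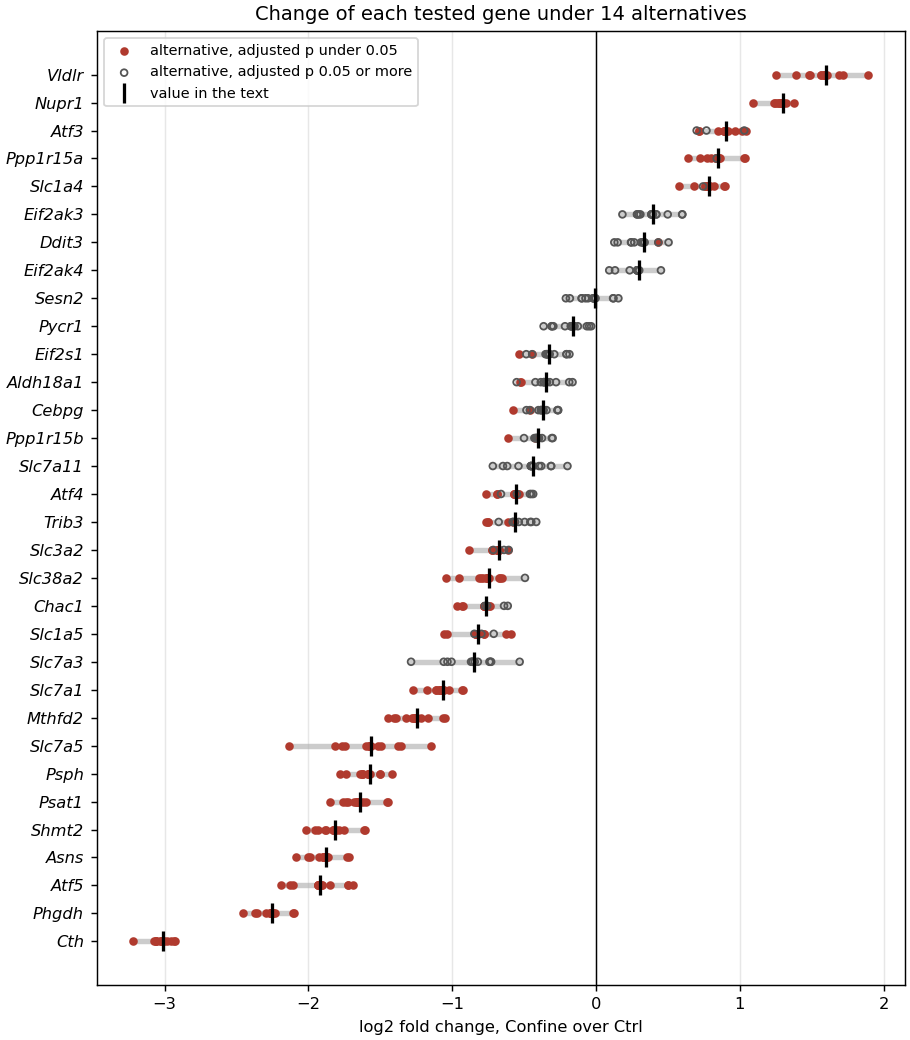
Log2 fold change of each tested gene in the text (black ticks) and under 14 alternatives (circles, 13 for Slc7a3). These changed the scaling, filter, test, replicate block or libraries used. Circles are filled where the edgeR, DESeq2 or limma adjusted p was under 0.05. The 10 genes at the bottom, from Slc7a1 at -1.07 to Cth at -3.01, kept a call in every alternative, as did Nupr1 and Vldlr at the top.

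Under those alternatives 10 of the 15 lower members and 2 of the 5 higher members kept their call in each. The 10 were Atf5, Asns, Phgdh, Psat1, Psph, Shmt2, Mthfd2, Cth, Slc7a5 and Slc7a1, and the 2 were Nupr1 and Vldlr. Phgdh ranged from -2.46 to -2.10, Asns from -2.09 to -1.72 and Cth from -3.22 to -2.93.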

How the data were processed

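RNA-seq was compared between 3 Ctrl and 2 distinct Confine libraries of MEFs. The authors deposited raw counts per gene. Per the labels, the submitters' processing notes name Trim Galore 0.6.10, HISAT2 2.1.0, SAMtools 1.5, featureCounts and mm10. The strand setting is not given in the sources used here, and reads shared with near-identical copies were not examined. Of 55335 identifiers 55154 matched GENCODE M21 (GRCm38), which gave names, positions and exon lengths.

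Counts were tested with edgeR 4.0.16 (TMM, filterByExpr, quasi-likelihood) in R 4.3.3, on 3 residual degrees of freedom (median prior degrees of freedom, 14.8). Members and lists were chosen with earlier results of these data known. Full values were given for members past a log2 fold change of 1.5 and for Atf4, Ddit3, Eif2ak3 and Eif2ak4, and genes of the neighbouring lists were named where called past that cutoff. Further genes of those lists, with smaller changes, were named after their values were seen. Tested on counts simulated for this comparison over 15881 genes, edgeR found 74% of 200 changed genes and made 159 calls, 6.92% of them false. The simulation gave every gene the same dispersion and balanced rises and falls, with far fewer changed genes than were called in the data. Its rates need not hold for the data. DESeq2 1.42.0, limma-voom (limma 3.58.1), other scalings and filters, a replicate block and leaving out each library were the alternatives. Intervals and floors cover counting error or the fitted spread only.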

Additional observations from a re-analysis of the deposited data

How the results depend on the processing

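With TMM replaced by library size, 2805 genes were called lower where 1619 had been, and 0 members stayed higher past the stricter cutoff. Atf3 then lost its call, and Cebpg, Trib3, Eif2s1 and Ppp1r15b were called lower. With the identical columns counted as 2 samples these values were 2456 and 0. With at least 10 counts required in every library, 479 genes were higher past the cutoff where 777 had been, and fewer genes were tested. With the fixed letters TGATGCAAT, 2 members had a promoter match (Nupr1 and Pycr1) in place of 9. The causes of the other shifts were not tested.

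Leaving out 1 library at a time gave 1196 to 2411 genes higher and 850 to 2015 lower, and 618 to 801 and 353 to 505 past the cutoff. Members called higher were 2 to 5 and lower 10 to 17, and past the cutoff 0 to 1 and 5 to 8. Other pathway genes called higher were 10 to 13 and lower 9 to 31, and past the cutoff 3 to 5 and 3 to 6. Without either Confine library the lone one is assumed to vary like Ctrl. Sesn2, not called, at -0.0050, ranged from -0.18 without Confine replicate 3 to 0.16 without the repeated Confine library, and was 0.12 without Ctrl replicate 1.

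The replicate block was fitted with the repeated library as number 2 and as number 1. Same-numbered libraries deviated with a correlation across genes of -0.053 and 0.052. With 2 Confine libraries and the number of the repeated one unsettled, these values cannot show what same-numbered libraries share. As number 2, the block gave 1448 genes higher and 1080 lower, 11 members lower, 15 other pathway genes lower where 26 had been, and a Sesn2 value of 0.12. As number 1 it gave 2640 higher, 2293 lower and 19 members lower.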
